A study of Mus musculus with 2 samples.

Results

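The regions described here are PHLPP1 CUT&Tag peaks that stood at the end of a single protein-coding gene and appeared in the peak lists of both untreated and IL-4-treated macrophages. A region was a member when its IL-4 interval lay on chromosomes 1 to 19, overlapped an untreated interval by at least 1 bp, and had a summit within 1 kb of an annotated end of exactly 1 RefSeq protein-coding gene (GRCm38, the same build as mm10). There were 917 such intervals at 899 genes, out of 11232 IL-4 intervals at a single gene end and 237724 IL-4 intervals in all. The untreated list held 148348 intervals on the same chromosomes, and 912 of them were matched to the members. Members were chosen by their presence in both lists, so that presence is described and not tested.

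The series holds 2 libraries, 1 per group, from mouse primary bone marrow-derived macrophages grown with recombinant mouse M-CSF at 20 ng/ml. One group was untreated and the other received IL-4, a cytokine of alternative macrophage activation, at 20 ng/ml for 4 h. The design text names wild-type cells for the profiling, while the treatment protocol names wild-type and Phlpp1-deficient cells. The genotype is not a separate label of either sample. An antibody to PHLPP1 from ProteinTech was used with a Vazyme kit, and whether animals were pooled is not given in the sources used here; no control antibody, input or PHLPP1-deficient library was analysed here.

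PHLPP1 is a phosphatase best known for removing an activating phosphate from the kinase AKT. CUT&Tag uses an antibody to bring a transposase to chromatin, so that DNA near the target is cut and tagged for sequencing. Many mammalian gene starts lie in CpG islands, stretches of high GC content rich in the CpG dinucleotide. GC boxes are bound by Sp family factors, and CCAAT boxes by NF-Y.

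Promoters of 4 of the members with the strongest IL-4 peaks are shown because they span the range of sequence found among them. Each is the RefSeq window of GRCm38.p6 from 250 bases before to 50 bases after the gene start, 5′ to 3′ on the gene's strand, and capitals mark exact matches to the motifs searched. Smc2 encodes a condensin subunit that helps compact chromosomes, Gpbp1 a regulator that binds GC-rich promoters, Suclg1 the α subunit of succinyl-CoA ligase, an enzyme of the citric acid cycle, and Wipi1 a protein of autophagosome formation.
Smc2, chr4:52438971-52439270, plus strand: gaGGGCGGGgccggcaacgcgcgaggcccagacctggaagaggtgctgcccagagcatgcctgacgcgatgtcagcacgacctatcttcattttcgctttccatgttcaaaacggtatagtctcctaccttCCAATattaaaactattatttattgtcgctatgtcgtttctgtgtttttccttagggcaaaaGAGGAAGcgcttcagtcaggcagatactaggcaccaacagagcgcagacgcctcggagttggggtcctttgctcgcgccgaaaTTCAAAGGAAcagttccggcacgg
Gpbp1, chr13:111490078-111490377, minus strand: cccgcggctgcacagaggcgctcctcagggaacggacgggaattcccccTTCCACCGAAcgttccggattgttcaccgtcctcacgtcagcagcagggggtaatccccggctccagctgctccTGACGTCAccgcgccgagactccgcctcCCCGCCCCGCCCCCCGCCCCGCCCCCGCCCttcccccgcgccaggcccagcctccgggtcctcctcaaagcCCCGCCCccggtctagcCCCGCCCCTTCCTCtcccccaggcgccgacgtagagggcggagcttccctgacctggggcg
Suclg1, chr6:73248255-73248554, plus strand: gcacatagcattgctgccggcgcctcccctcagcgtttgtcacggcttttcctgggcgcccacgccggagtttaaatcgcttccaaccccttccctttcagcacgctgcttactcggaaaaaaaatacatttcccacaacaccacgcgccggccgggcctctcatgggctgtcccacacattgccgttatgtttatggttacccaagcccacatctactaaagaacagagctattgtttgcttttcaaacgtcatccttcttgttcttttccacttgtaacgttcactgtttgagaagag
Wipi1, chr11:109611340-109611639, minus strand: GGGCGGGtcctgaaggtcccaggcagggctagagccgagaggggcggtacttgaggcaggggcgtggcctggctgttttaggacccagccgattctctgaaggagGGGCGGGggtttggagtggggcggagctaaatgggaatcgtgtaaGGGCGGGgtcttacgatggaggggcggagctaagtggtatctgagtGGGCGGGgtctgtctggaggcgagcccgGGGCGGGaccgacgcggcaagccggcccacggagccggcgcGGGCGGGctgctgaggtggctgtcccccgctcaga
The Smc2 window had a GC content of 52.7% and 21 CpG dinucleotides, and it held 1 match each to the GC box, the CCAAT box, the PU.1 motif and the STAT6-type motif spelled out with the motif shares. The Gpbp1 window had a GC content of 73.7% with 32 CpG dinucleotides and held 7 GC-box matches, some of which overlap each other, with 1 match each to the STAT6-type, CRE and PU.1 motifs. The Wipi1 window, with a GC content of 69.0% and 25 CpG dinucleotides, held 6. None of the motifs searched was found in the Suclg1 window, which had a GC content of 51.0% and 17 CpG dinucleotides.

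Peak heights are given as fragments at the summit, solved from the deposited fold enrichment and −log10 p, with exact Poisson 95% intervals that cover counting error only. Fragment numbers are not scaled between libraries, whose lowest local backgrounds were 0.936 fragments (untreated) and 0.643 (IL-4), or 1.46 times as high in the former. With 1 library per group, no difference between the lists has a replicate check, and none was tested. Each fold enrichment, −log10 p and −log10 q is the authors' deposited value for that peak.

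Smc2 had the tallest IL-4 peak of the members, on chromosome 4 from 52438724 to 52439421, with 41 fragments (29.4 to 55.6) in the IL-4 list and 15 (8.40 to 24.7) in the untreated list. Both summits lay upstream of the start, 12 bp apart, and the untreated interval of 213 bp lay wholly inside the IL-4 interval of 698 bp. Suclg1 had 26 fragments (17.0 to 38.1) and 5 (1.62 to 11.7), with the IL-4 summit on the start itself and the untreated summit 6 bp away. Its fold enrichments of 14.5 and 3.10 gave the highest ratio among members with q of at most 0.05 in either list, 4.67. Gpbp1 had 28 (18.6 to 40.5) and 6 fragments, a fold ratio of 4.17. At Gpbp1 the summits were 448 bp apart, so the overlap of 122 bp joins different positions along the promoter.

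Wipi1 had 30 fragments with IL-4 and 7 in the untreated list. Gpr155, encoding a lysosomal membrane protein that senses cholesterol, had 24 and 5. Stam2, encoding an adaptor of the endosomal sorting machinery, had 22 and 7 on a narrow IL-4 interval of 249 bp. Lnpep, the insulin-regulated aminopeptidase gene, had 25 and 7 on an interval of 1025 bp, and these peaks were thus alike in height over widths far apart. Csnk1g2, a casein kinase gene, had 25 and 10. Ensa, encoding an inhibitor of the phosphatase PP2A, had 26 and 10. Pknox1, encoding a homeodomain transcription factor, had 29 and 13.

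Mtrf1l, encoding a mitochondrial translation release factor, had 24 and 12 fragments. Its IL-4 summit lay 909 bp inside the gene table's start but 163 bp upstream of the RefSeq promoter start, so the distance depends on the transcript used. Upf2, whose product acts in nonsense-mediated mRNA decay, had 23 fragments (14.6 to 34.5) with IL-4 and 21 untreated, at −log10 q of 16.6 and 14.3. Among the 12 members with the highest IL-4 −log10 q, Upf2 was the one whose heights were nearly equal in the lists. Among these 12, the Poisson intervals did not overlap at Smc2, Gpbp1, Suclg1, Wipi1, Gpr155 and Lnpep. The share without overlap over all members is not given here, so this has no background beside it. The 12 were ranked on the IL-4 value, so a higher IL-4 height among them is partly set by the choice.

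**Figure D1:**
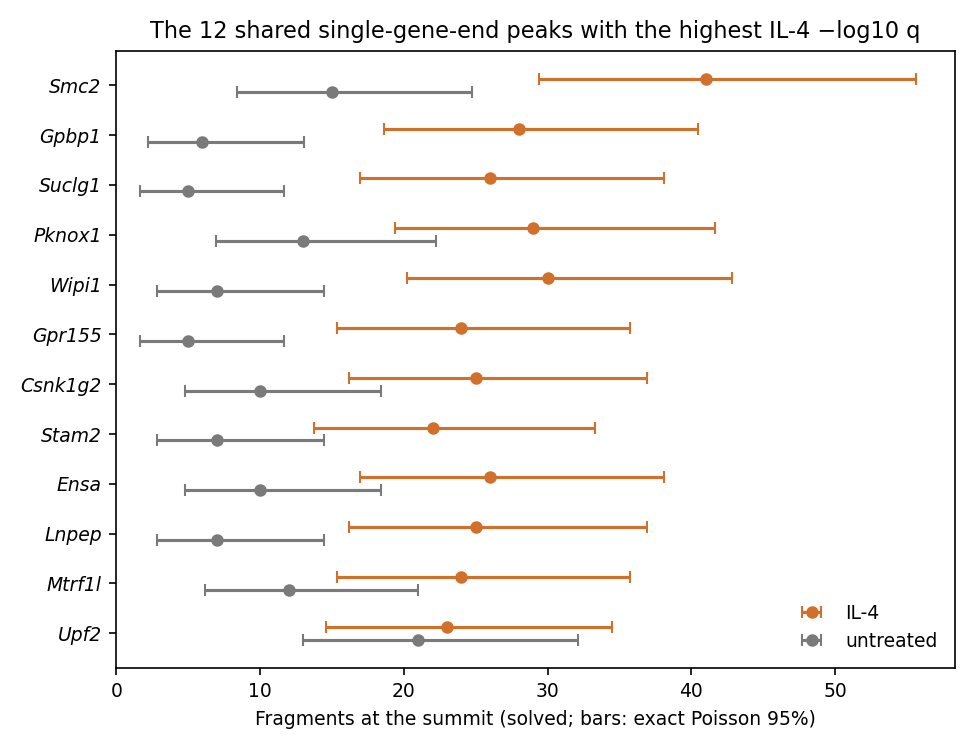
Fragments at the summit (x axis, exact Poisson 95% bars) in the IL-4 (orange) and untreated (grey) lists for the 12 members with the highest IL-4 −log10 q, 1 library per group. Smc2 stands highest in the IL-4 list at 41 fragments, and Upf2 is nearly level at 23 and 21.

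Ranked instead by the untreated −log10 q, the leading member was Lars2, encoding the mitochondrial leucyl-tRNA synthetase, with 22 fragments (13.8 to 33.3) in the untreated list and 15 (8.40 to 24.7) with IL-4. This peak lay by the 3′ end of the gene, 624 bp inside it, with summits 10 bp apart. After Lars2 and Upf2 came Sfi1, encoding a centrosomal protein, with 44 untreated and 24 IL-4 fragments. Local background at Sfi1 was 8.78 and 5.91 fragments, against a member median of 0.742 in the IL-4 list, and its folds were 4.60 and 3.62. Slc35f5, a solute carrier gene, followed with 15 untreated and 21 IL-4 fragments. Tmem267 had 14 and 9, on an untreated interval of 1024 bp. Khsrp, encoding an RNA-binding protein of splicing and mRNA decay, had 13 and 17. Smc2, with 15 and 41, and Pknox1, with 13 and 29, complete these 8. The untreated summit thus held more fragments at Lars2, Sfi1 and Tmem267, and the IL-4 summit at the other five.

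Beyond Suclg1 and Gpbp1, the members with the highest fold ratio were Gpr155 at 4.03, Ccdc9 at 3.64, Zfp963, a C2H2 zinc finger gene, at 3.54 and Suco at 3.40. Their untreated partners had 5 fragments at Gpr155, the median of the untreated list, and 4 at the others, its lowest value. The lowest ratio was at Ermn, a gene of the oligodendrocyte cytoskeleton, with 3 fragments with IL-4 and 10 untreated, a ratio of 0.429. Klf10, encoding a transcription factor induced by TGF-β, had 4 and 9 at a ratio of 0.444. 4931408C20Rik had 5 and 16 (0.470), Chst1, a sulfotransferase gene, 3 and 8 (0.475), Cyp20a1 3 and 8 (0.524) and Slc4a8, a bicarbonate transporter gene, 3 and 7 (0.539). All 6 of these had an IL-4 −log10 q of 0.393, the lowest value in that list.

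Over all members, the IL-4 summit had a median of 6 fragments (range 3 to 41) and the untreated summit a median of 5 (range 4 to 44). At least 10 fragments stood at the IL-4 summit of 204 members, at the untreated summit of 29 and at both of 25. The deposited q was at most 0.05 in both lists for 164 members, in the untreated list alone for 72, and in neither list for 354. Members thus ranged from tall peaks in both lists to pairs at the lower limit of both lists.

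IL-4 fold enrichment exceeded the untreated at 633 members and was lower at 284, and the median log2 ratio was 0.24. With fragments divided by each library's lowest background, the median was 0.68. The direction followed the IL-4 height: among members with an IL-4 q above 0.05 the IL-4 fold was higher at 175 and lower at 251, with a median of −0.03, and for peaks at or past a −log10 q of 5 it was higher at 143 of 144, with a median of 1.01. Since these strata are cut on the IL-4 value, this is a description. The median fold ratio (log2) was −0.02 over all 13021 shared intervals and −0.03 over those at no gene end. The IL-4 fold was at least 2 times the untreated fold at 91 members (9.92%), beside 1.68% of all shared intervals. Among shared intervals at the ends of 2 or more genes it was so at 38 of 197 (19.3%), a higher share than among members. An untreated fold at least 2 times the IL-4 fold was found at 4 members (0.436%), beside 0.66% of all shared intervals and 0.508% of those at the ends of 2 or more genes. All 91 members with an IL-4 fold at least 2 times the untreated fold had an IL-4 q of at most 0.05. This is largely set by peak height, as the highest IL-4 fold among members with a q above 0.05 was 3.65.

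The share of IL-4 intervals with an untreated overlap was 8.16% (Wilson 95% interval 7.67 to 8.68) at single gene ends, beside 5.48% over all IL-4 intervals and 5.29% of those at no gene end. Counted by gene, 10.3% of the 8687 genes with a single-gene-end IL-4 interval had a member. The difference lay in the taller peaks. At 3 fragments, 3.73% of single-gene-end intervals and 4.14% of those at no gene end were shared, whereas at 10 to 14 fragments the shares were 29.6% (25.4 to 34.2) and 17.0% (13.9 to 20.5). At 15 or more they were 62.1% (53.6 to 69.9) and 68.3% (57.6 to 77.4), and these intervals overlap.

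Over all heights, 9.94% (9.22 to 10.7) of intervals at a gene start and 4.56% of those at a 3′ end (127 of 2783) were shared. At like height the Wilson intervals were apart at 6 to 7 fragments, where 159 of 1328 intervals at a start and 16 of 342 at a 3′ end (4.68%, 2.90 to 7.46) were shared. They overlapped at 3 fragments (3.75% and 3.15%), 4 (4.88% and 4.36%), 5 (7.30% and 5.82%), 8 to 9 (17.8% and 8.89%) and 10 to 14 (28.8% of 333 and 3 of 12). Wider intervals have more room to overlap, and members were wide. For intervals of 600 bp to under 800 bp the shares were 30.5% (26.0 to 35.4) at starts, 0 of 17 at 3′ ends (0 to 18.4%) and 14.8% (13.1 to 16.7) at no gene end. Below 150 bp they were 2.90% at starts, 3.18% at 3′ ends and 3.71% at no gene end. Wilson intervals treat regions of a library as independent and cover counting error only.

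**Figure D2:**
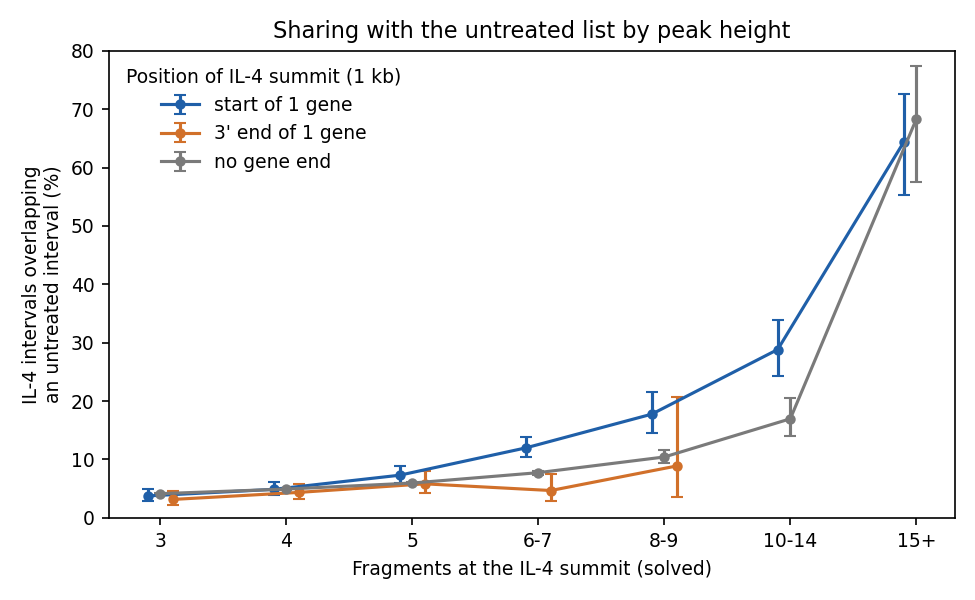
Percent of IL-4 intervals that overlap an untreated interval (y axis, Wilson 95% bars) by fragments at the IL-4 summit (x axis), for summits at the start (blue) or 3′ end (orange) of 1 gene or at no gene end (grey), drawn where a class had at least 20 intervals. The classes are close at 3 and 4 fragments, and the start class stands above the others drawn from 6 to 14 fragments.

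Strand, taken from the RefSeq promoter table, was known for 745 members, of which 618 (83.0%, 80.1 to 85.5) lay at the gene start and 127 at the 3′ end. Among the 10315 single-gene-end intervals with no untreated overlap, the start share was 67.8% (66.8 to 68.8). Taller peaks lay more often at the start in both sets. At a −log10 q under 1 the start share was 66.0% of members and 61.2% of the unshared intervals, between q 0.05 and a −log10 q of 3 it was 91.9% and 79.9%, and at 5 or more it was 96.9% and 98.2%. The sets differed most at the middle heights and were close at the top.

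Members clustered close to the start. Their median signed distance was 6.5 bp, with quartiles at 170 bp upstream and 189 bp downstream, and 380 of the 618 (61.5%) lay within 250 bp, beside 45.4% of unshared intervals at starts. In intervals with several summits, distance was taken from the summit nearest an end of the gene, not from the tallest. Several summits were found at 130 of the 917 members and 172 of the 10315 unshared intervals, and the part of this in the shares was not tested. For peaks at or past a −log10 q of 5 the shares within 250 bp were 81.5% and 83.3%, and the medians were 68.5 bp and 19 bp upstream. The 1 kb limit fell between Abcf1, a member exactly 1000 bp from its gene's 3′ end, and Spryd4, outside at 1005 bp. The overlap limit fell between Cxcr1, a chemokine receptor gene whose intervals shared 1 bp, and Zfp689, whose intervals touched with a gap of 0 bp and no shared base.

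**Figure D3:**
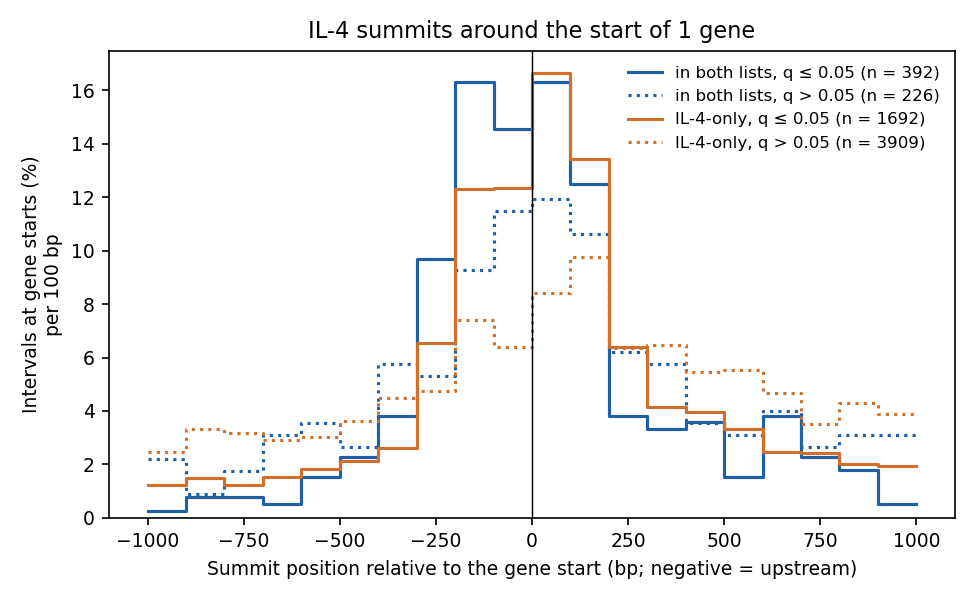
Percent of intervals per 100 bp (y axis) by summit position relative to the gene start (x axis, bp, negative upstream), for members (blue) and single-gene-end intervals without an untreated overlap (orange), with IL-4 q at most 0.05 (solid) or above (dotted). All 4 curves are highest within about 200 bp of the start, and the dotted curves are flatter. In intervals with several summits, the summit nearest an end of the gene was used.

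Member intervals were wide in the IL-4 list. Their median width was 347 bp (quartiles 209 to 591, range 138 to 1601), beside 202 bp for unshared single-gene-end intervals. For peaks at or past a −log10 q of 5 the medians were 679.5 bp and 506 bp. Wider intervals have more room to overlap, so a greater width of members is partly set by the choice. The matching untreated intervals had a median of 214 bp (range 141 to 1117), and 259.5 bp where the IL-4 −log10 q was at least 5. The IL-4 interval was the wider at 649 members, the untreated at 253, and 15 had equal widths.

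The untreated interval lay wholly inside the IL-4 interval at 344 members (37.5%), and the reverse held at 70. The widest member was at Sp4, encoding an Sp family factor that binds GC boxes, with 1601 bp, 4 summits and an untreated partner of 150 bp. Csf2ra, the GM-CSF receptor α gene, had 1502 bp and a partner of 525 bp, with summits 2 bp apart. Rap2b, a small GTPase gene, Zc3h4 and BC005537 had 1296, 1277 and 1226 bp. The narrowest was at Atp2c2, a calcium pump gene, with 138 bp, and those of 139 bp included Fgf15, the linker histone gene H1f5 and Rela. These narrow members had 3 to 5 IL-4 fragments, and the 5 widest had 8 to 13.

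**Figure D4:**
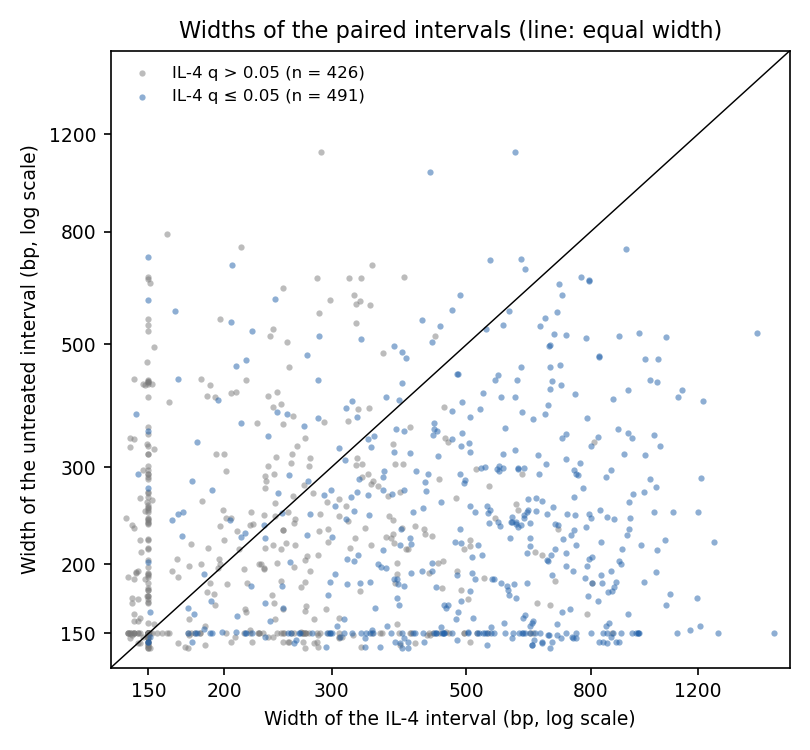
Width of the untreated interval (y axis, bp, log scale) against that of the overlapping IL-4 interval (x axis, bp, log scale) for all 917 members, coloured by whether the IL-4 q was at most 0.05 (blue, n = 491) or above (grey, n = 426), with the line of equal width. Most points lie below the line, as 649 members were wider in the IL-4 list.

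The untreated summits mostly lay near an end of the same gene. An untreated summit within 1 kb of either end of that gene was found for 881 members (96.1%), and it fell inside the IL-4 interval for 630. Since members overlap by rule, a high share near the gene is largely set by the choice. The median gap between summits was 114 bp (quartiles 50 to 210, highest 767). An untreated q of at most 0.05 was found for 236 members (25.7%), beside 14.7% of all untreated intervals. Where the IL-4 −log10 q was at least 5, 74 of 144 partners passed, with a median of 7 untreated fragments, and where it was under 1, 46 of 269 did, with a median of 5. The taller IL-4 peaks thus had the taller untreated partners, by a small number of fragments.

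There were 18 genes with 2 member intervals each, and at 5 of these both were matched to the same untreated interval. At Ern1, Ninj1 and Rhog, 1 member interval also overlapped the untreated interval matched to the other. At 5 genes the intervals lay at opposite annotated ends: Dusp23, Nap1l4, Nek1, Net1 and Tle1. Junb, an AP-1 subunit gene, had intervals of 11 and 10 fragments upstream of its start, with untreated partners of 5 and 6. Rhog, a small GTPase gene, had 12 and 20 around its start, with partners of 7 and 4, so the order of the partner heights was opposite. The Rhog interval of 12 fragments also overlapped the untreated interval of 4. Insig1, a brake on sterol synthesis, had 5 and 12 over 1 untreated interval of 7 fragments.

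The genes of the members were spread over many functions. Of the 30 gene lists examined, the share of genes with a member is read beside the 10.3% over all genes with a single-gene-end IL-4 interval. The 10.3% is not matched for peak height. Among the 2810 genes with such an interval at an IL-4 q of at most 0.05, 486 (17.3%) had a member at that q. Small lists have wide intervals, and no list was tested. Members outside a list can share its function.

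Genes of RNA processing and translation were mostly near or below the 10.3% over all genes. Pre-mRNA splicing had 1 of 39, Snrnp70 of the U1 particle, with 12 IL-4 and 10 untreated fragments. Khsrp, with 17 IL-4 and 13 untreated fragments, was not on that list. The mRNA decay and export list had 3 of 32: Upf2, the nonsense-mediated decay nuclease gene Smg6 with 7 and 8, and the exonuclease gene Xrn2 with 5 and 5. Cytosolic ribosome genes had 3 of 37, led by Rpl21 with 22 and 9. Lars2 was the single member among 22 aminoacyl-tRNA synthetase genes.

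Mitochondrial and metabolic genes held some of the tallest members. The citric acid cycle list had 3 of 9 (33.3%, 12.1 to 64.6), all at the start: Suclg1, Ogdh of the oxoglutarate dehydrogenase complex with 16 and 6, and the fumarase gene Fh1 with 7 and 6. The mitochondrial ribosome had 4 of 31, with Mrps28 at 11 and 4 fragments. The respiratory chain had 4 of 38, led by the ATP synthase gene Atp5l with 10 and 5. Hspa9, encoding the mitochondrial chaperone mortalin, had 18 and 6 and was 1 of 3 members among 19 genes of mitochondrial import and proteases. Solute carriers had 21 of 171 (12.3%), with Slc35b1, a nucleotide sugar transporter gene, at 17 and 7.

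Protein turnover and traffic genes had shares between 9.52% and 13.5%. The proteasome had 2 of 21: Psmd1 of the regulatory particle with 20 and 6 fragments, and the immunoproteasome gene Psmb8 with 9 and 4 at its 3′ end. Ubiquitin ligases and deubiquitinases had 12 of 89, including Ube3a with 15 and 6 and the deubiquitinase gene Usp22 with 12 and 11. Vesicle traffic had 14 of 115, and all 9 with known strand lay at the start. Among them were the Rab GTPase genes Rab40c with 19 and 7, Rab1a with 13 and 7 and Rab8a with 13 and 10. Lysosome and autophagy genes had 3 of 25, at 5 to 7 IL-4 fragments. Wipi1 and Gpr155, with 30 and 24 IL-4 fragments, were not on that list.

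Among nuclear genes, condensin, cohesin and SMC genes had 3 of 11: Smc2, the condensin II gene Ncapg2 with 5 and 5, and Ctcf, encoding the insulator protein, with 5 and 7 and an overlap of 4 bp. Zinc finger genes named Zfp had 22 of 178 (12.4%), with Zfp78 at 17 and 5 and Zfp687 at 16 and 7. Chromatin enzymes had 5 of 46, led by Kmt2e with 11 and 8. RNA polymerase and general transcription factor genes had 5 of 45, at 4 to 7 IL-4 fragments. DNA replication and repair genes had 2 of 36, the ligase gene Lig3 and Mdc1, each with 5 IL-4 fragments.

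Genes of the PHLPP, AKT and mTOR pathway had 6 members of 31 (19.4%, 9.19 to 36.3). Mlst8, a subunit of both mTOR complexes, had 14 and 7 fragments. Gsk3b, a kinase inhibited by AKT, had 12 and 6. Eif4ebp1, a translation repressor under mTOR, had 6 and 4, and Akt2 had 5 and 6 at its 3′ end. The others, named after their values were seen, were Phlpp1 itself with 5 and 4 fragments at its start and the PI3-kinase gene Pik3cg with 5 and 7. The Phlpp1 interval, on chromosome 1 from 106171195 to 106171649, had a −log10 q of 1.26 with IL-4 and 0.408 untreated. Its untreated height of 4 fragments is the lowest in that list.

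IL-4 receptor signalling genes had 2 members of 19. Socs1, whose product restrains cytokine signalling, had 12 fragments with IL-4 and 6 untreated, but its intervals shared 45 bp and its summits were 634 bp apart. Irs2, an adaptor of the receptor, had 7 and 6 with summits 16 bp apart. The alternative activation list had 1 of 18, the histone demethylase gene Kdm6b with 5 and 7, and the inflammatory list 1 of 19, the NF-κB gene Rela with 3 and 6 at its 3′ end.

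Macrophage genes had 3 of 17 (17.6%, 6.19 to 41.0): Csf2ra with 12 and 7, the lipid receptor gene Trem2 with 6 and 5 and the Fc receptor gene Fcgr1 with 5 and 4. Markers of neutrophils, T and NK cells, B cells, erythroid, stromal and dendritic cells had 0 of 21, which allows a share of up to 14.3%. Both ranges include the 10.3% over all genes. Olfactory and vomeronasal receptor genes, which macrophages are not known for, had 21 of 281 (7.47%, 4.94 to 11.2), at 3 to 7 IL-4 fragments. Of their 16 with known strand, 7 lay at the start, beside 618 of 745 over all members.

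Promoter sequence was compared for the 606 promoters of members at gene starts, with all 16456 RefSeq promoter windows of protein-coding genes beside them. Of the 16456, 12678 (77.0%) had a promoter start within 100 bp of the gene table's start, which was used to place the peaks. For the rest, the window can lie away from that start. Median GC content was 63.7% and 56.7%, and the median ratio of observed to expected CpG dinucleotides was 0.78 and 0.60. A ratio of at least 0.6, a usual mark of a CpG island, was found in 72.6% and 49.8%. For peaks at or past a −log10 q of 5 it was found in 85.5% of 124 member promoters and in 85.0% of 167 promoters with an unshared IL-4 interval, so the shares were close at that height.

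The GC box, GGGCGGG on either strand, was found in 61.4% (57.4 to 65.2) of member promoters, 45.2% of those with an unshared interval and 34.7% of all. For peaks at or past a −log10 q of 5 the shares were 70.2% (61.6 to 77.5) and 62.3% (54.7 to 69.3), whose intervals overlap. The CCAAT box was found in 38.8% of member promoters and 39.1% of all, and among the peaks at or past a −log10 q of 5 in 41.9% of members and 52.7% of unshared promoters. The ETS motif CCGGAAG was found in 79 of 606 member promoters and 12.3% of all, and the PU.1 motif GAGGAAG in 12.4% and 13.1%.

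The STAT6-type motif, TTC and GAA separated by 4 bases of any kind, was found in 6.44% of member promoters and 6.40% of all. The other motifs searched on both strands were the E-box CACGTG at 9.74% and 7.97%, the CRE TGACGTCA at 3.47% and 2.40%, the NRF1 motif GCGCATGCG at 3.96% and 2.46%, the YY1 motif AAGATGGCG at 2.31% and 1.92%, and the AP-1 motif TGANTCA at 4.46% and 7.12%. GC-rich motifs are found more often in GC-rich windows, and the part of base content in these shares was not tested. A match describes letters in a window and is not a binding site.

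**Figure D5:**
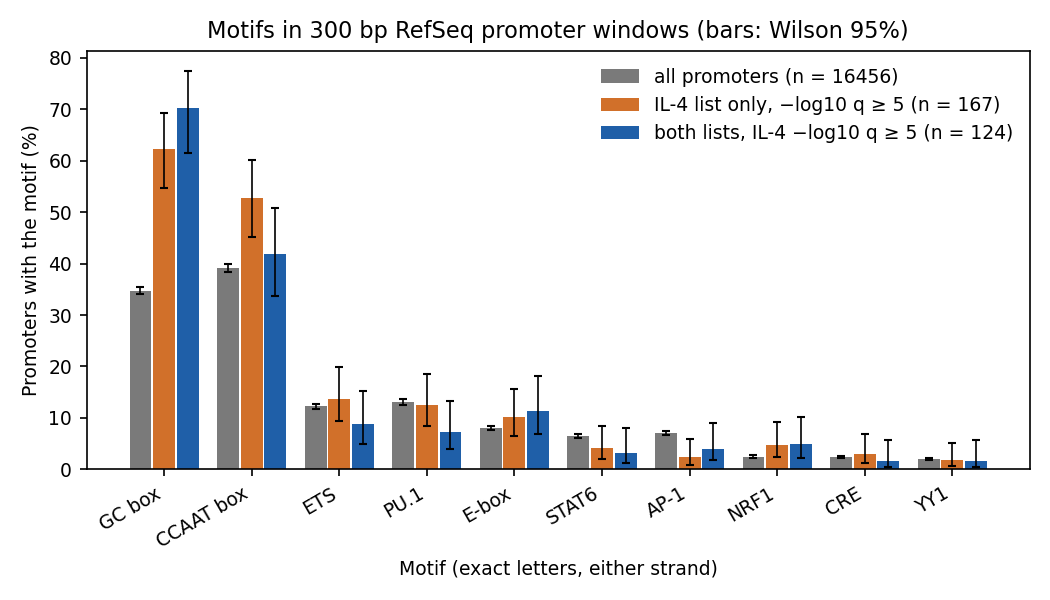
Percent of 300 bp RefSeq promoter windows with at least 1 match to each motif (y axis, Wilson 95% bars) for all promoters (grey) and, for IL-4 peaks at or past a −log10 q of 5, promoters with an unshared interval (orange) or a member (blue). The GC box stands at 70.2% and 62.3% in the latter sets and 34.7% over all promoters.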

How the data were processed

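CUT&Tag for PHLPP1 was analysed in 2 libraries, 1 per group, from the peak list that the authors deposited for each. Per the submitters' processing notes, the build was mm10 and the tools were MACS2 2.2.7.1, Bowtie 0.12.8 and DiffBind, in roles not given there. Not given in the sources used here were the control, duplicate handling and fragment size. In the authors' files each deposited entry holds a score, equal to 10 times the −log10 p with decimals dropped, a fold enrichment over local background (a linear ratio), a −log10 p and a −log10 q, and the summit's offset. The lowest deposited −log10 p was 2.00 in both lists.

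Entries of the same interval were merged, and no list of excluded genome regions was applied here. Fragments and background were solved from fold = (fragments + 1)/(background + 1) with p a Poisson upper tail, and 100% of entries in each list gave a whole number within 0.01 of the deposited −log10 p. Total reads were not used here, so depth is known only through the lowest background. Genes came from the RefSeq table of GRCm38.p6 (20661 protein-coding genes on chromosomes 1 to 19), and strand, known for 16456 of them, from the RefSeq promoter table. Where several untreated intervals overlapped a member (22 members), the one with the highest −log10 q was its partner. Python 3.11.15, numpy 2.4.6, pandas 2.3.3 and scipy 1.17.1 were used, and the scripts were tested on simulated data.

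With 1 library per group no test was run. Wilson and exact Poisson 95% intervals cover counting error only, since fragments from PCR are not independent molecules. Named genes were the members with the highest −log10 q in either list (12 and 8), the highest and lowest 6 fold ratios at q of at most 0.05 in either list, the 5 widest and 3 narrowest, those at the limits, and up to 4 per gene list. Of these, the ones that add to a result are given. The members and lists were chosen with earlier results of these data known. Alternatives changed the window, overlap, q, background, summit, partner and chromosomes.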

Additional observations from a re-analysis of the deposited data

How the results depend on the processing

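The alternatives were run on the members' own values, not on the sets beside them or the motif shares. Single gene lists were counted again only at an IL-4 q of at most 0.05. The median log2 ratio of the members stayed above 0 in all the alternatives, but both on q kept members with an IL-4 q of at most 0.05. Among members with an IL-4 q above 0.05 it was −0.03, so its sign depended on the IL-4 height. Of the values, 25 moved by less than their counting interval (counts by less than 1.5 times) and 34 by more. Using the best summit only, adding chromosome X or taking the untreated interval with the longest overlap moved none. Dividing fragments by the lowest background gave a median log2 ratio of 0.68 in place of 0.24, and counting starts within 250 bp gave a start share of 51.0% of members with known strand. A 500 bp window gave an overlap share of 9.63%, a median IL-4 width of 394 bp, a start share of 88.5% and a log2 ratio of 0.35. A 3 kb window gave 1440 members, an overlap share of 6.60%, a width of 275.5 bp, a start share of 68.7% and a log2 ratio of 0.18. An overlap of at least 50% of both intervals gave 298 members, a share of 2.65%, widths of 266.5 bp and 234 bp untreated, a start share of 75.9%, a log2 ratio of 0.21, a summit gap of 64.5 bp and 45 members in gene lists. A q of at most 0.05 in both lists gave 164 members, 5.55%, 590.5 bp and 273 bp, 93.7%, 0.33, 83 bp and 28. A q of at most 0.05 in the IL-4 list gave 491 members, 16.6%, 541 bp and 226 bp, 94.5%, 0.61 and 78 in gene lists. No paired analysis was possible because each group had 1 library.

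Of the members, 235 rested on 4 untreated fragments and 96 on 3 IL-4 fragments, the lowest numbers in those lists. Strand was missing for 172 members, and no control library was analysed here.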

Other observations

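On chromosome X, outside the rule, 2 of 153 single-gene-end IL-4 intervals overlapped an untreated interval. They lay at Haus7, encoding a subunit of the augmin complex of the spindle, with 7 IL-4 and 6 untreated fragments, and at the chloride transporter gene Clcn5, with 4 and 4. At the ends of 2 or more genes, 197 of 1530 IL-4 intervals (12.9%, Wilson 95% interval 11.3 to 14.6) had an untreated overlap, and their median log2 fold ratio was 0.49.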
